A study of Mus musculus with 8 samples.

Results

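The genes described here carry out fatty acid oxidation in mitochondria and peroxisomes and the making of ketone bodies in the mouse liver. They are a list of 41 genes, each read on 1 probe set of the array, the one with the highest mean over the 8 arrays among those annotated with that gene's symbol alone. Of the 41, 40 had such a probe set, out of 18193 genes named on the array, and Acsl1, a long-chain acyl-CoA synthetase, was not analysed here. All 40 passed the filter on dim signal and were tested. By place of work they were sorted into 16 genes of mitochondrial oxidation, 3 of mitochondrial ketone metabolism, 12 peroxisomal enzymes, 4 peroxins, and 6 (Acsl1 included) whose products are found in several compartments or in the cytosol.

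Whole liver RNA came from 3 control mice labelled WT and from 5 POMCMfn2KO mice, all 6 weeks old and of a mixed C57Bl/6J, FVB/N and 129 strain, with 1 GeneChip array per mouse. By its name the POMCMfn2KO genotype lacks the mitochondrial fusion gene Mfn2 in POMC neurons, so the liver itself was not targeted; hepatic Mfn2 was at 9.88 ± 0.08 (SD, n = 3) in controls and 9.61 ± 0.24 (n = 5) in POMCMfn2KO (adjusted p = 0.169), which does not check the labels. Standard chow and water were given without limit, and light and dark periods lasted 12 h each. Sex, feeding state and the hour of collection are not in the labels. The title of the series concerns hepatic gluconeogenesis, and the comparison here asks whether the genes of fat oxidation differed between the same livers.

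Fatty acids enter the mitochondrial matrix as carnitine esters made by Cpt1a, and each turn of beta-oxidation then passes through a dehydrogenase, a hydratase, a second dehydrogenase and a thiolase, with electrons handed on by the electron transfer flavoprotein. The acetyl-CoA produced in the fasting liver is largely turned into ketone bodies. Peroxisomes run a related pathway for very long-chain, branched and dicarboxylic acids and bile acid precursors, shortening them before the products are passed to mitochondria. Many enzymes of both pathways are targets of the fatty acid receptor PPARa, which is active in fasting.

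All values are log2 levels as deposited, and changes are log2 differences, POMCMfn2KO minus control. The 3 controls correlated with each other at 0.997 or more over the genes tested. The POMCMfn2KO arrays were farther apart, with lowest correlations inside the group of 0.979 to 0.981; arrays 2 and 3 of that group were the nearest pair, at 0.995. Those 2 arrays also carried pancreatic acinar transcripts: the summed linear signal of the 10 of 14 listed markers with a probe set (1 of them below the filter) was 1281 to 1314 in controls, 1429, 2035 and 1304 in POMCMfn2KO arrays 1, 4 and 5, and 17739 and 19906 in arrays 2 and 3. The 8 hepatocyte markers were all bright, with summed signals of 194446 to 195776 in controls and 197894 to 210640 in POMCMfn2KO. Markers of other cells also differed: S100a9, of neutrophils, fell by 1.56 (adjusted p = 1.27e-05) and Timd4, of Kupffer cells, fell by 0.69 (0.00405), while Stab2 and Fcgr2b, of sinusoidal endothelium, rose by 0.55 (0.0107) and 0.41 (0.0403). By list, 1 of 3 neutrophil, 1 of 8 Kupffer cell and 2 of 6 endothelial markers tested passed, against 18.0% of all genes tested. The neutrophil markers did not move together: Mpo and Elane differed by -0.12 (adjusted p = 0.285) and 0.09 (0.507), and S100a8, below the filter, by -1.47. Of the 8 Kupffer cell markers 7 had lower means and 1, Clec4f, a higher one (0.10). All 6 endothelial markers tested had higher means. The summed signal of 5 skeletal muscle markers, 3 of them below the filter, was 198 to 319 in controls, 801 and 849 in POMCMfn2KO arrays 2 and 3 and 229 to 454 in the other 3. The part of these markers in the results was not tested. In whole tissue, fewer cells of a type and less RNA per cell cannot be told apart.

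Most genes of fat oxidation were close to their control level in POMCMfn2KO liver. Of the 40 tested, 4 rose (Hadha, Hadhb, Acad11 and Acot12) and 1 fell (Hadh) by limma with Benjamini-Hochberg adjustment over all 11986 genes tested. The 4 that rose are to be read against 7.02% of all genes tested that rose, and the 1 that fell against 10.9% that fell; in either direction 12.5% of the members and 18.0% of all genes passed. The median change was -0.01, against -0.02 over all genes. The 95% interval of the change lay between -0.5 and 0.5 for 36 of the 40, the exceptions being Hadh, Crot, Acot3 and Acot4, and between -0.3 and 0.3 for 17. Of all 11986 genes tested, 8855 had an interval inside the wider limits and 4519 inside the narrower ones. In 8 genes all 5 POMCMfn2KO arrays lay above all 3 controls (20%, against 12.0% of all genes), and in 2 genes all lay below (5%, against 16.5%). In either direction that is 10 of 40, against 28.5% of all genes. Without POMCMfn2KO arrays 2 and 3 none of the 40 passed limma (5 at an unadjusted p under 0.05), and without control 1, 2 or 3 only Hadhb did.

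**Figure D1:**
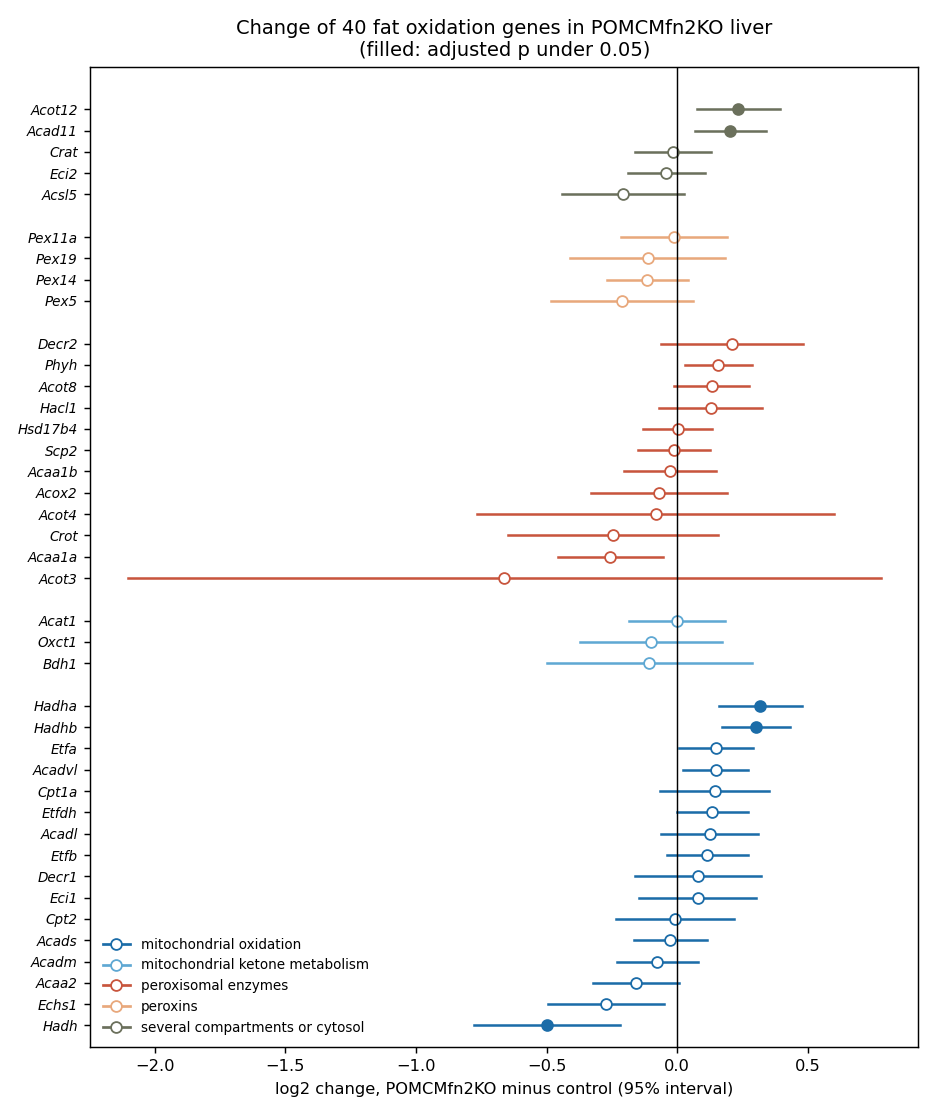
Change of each of the 40 genes (dot: log2 difference, POMCMfn2KO minus control; bar: 95% interval from the limma fit), sorted by class, with filled dots for adjusted p under 0.05. Hadha and Hadhb stand at the top of the mitochondrial class and Hadh at its foot, and the widest interval is that of Acot3, from -2.10 to 0.78.

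Cpt1a, Cpt2 and Acsl5, which activate fatty acids or bring them into the mitochondrion, had transcript levels that did not pass the test. Cpt1a, the carnitine palmitoyltransferase of the outer membrane and the main control point of the pathway, was at 12.08 ± 0.13 in controls and 12.23 ± 0.13 in POMCMfn2KO, a change of 0.14 with a 95% interval of -0.06 to 0.35. Its other bright probe sets gave -0.18 and -0.07, so the sign of this small difference is not settled. Cpt2, which rebuilds the acyl-CoA inside, differed by -0.01 (interval -0.23 to 0.22). Acsl5, a synthetase that activates fatty acids, was at 12.12, 12.07 and 12.05 in controls and at 11.65, 11.86, 11.99, 12.12 and 11.76 in POMCMfn2KO arrays 1 to 5. Its POMCMfn2KO mean was lower by 0.21 on the log2 scale, but the groups overlapped and the difference did not pass (adjusted p = 0.200).

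The trifunctional protein, the membrane-bound enzyme for long chains, had higher transcript levels for both of its subunits. Hadha and Hadhb encode its alpha and beta subunits, and the complex carries out the last 3 steps of each turn. Hadhb was at 12.80, 12.77 and 12.76 in controls and at 13.01, 13.11, 13.11, 13.13 and 13.02 in POMCMfn2KO arrays 1 to 5. Hadha was at 10.68, 10.76 and 10.76 in controls and at 10.90, 11.15, 11.12, 11.06 and 11.02 in the POMCMfn2KO arrays. For both genes, on the probe set used, every POMCMfn2KO array lay above every control. Hadhb rose by 0.30 (1.23-fold, SE 0.06, adjusted p = 0.00932) and Hadha by 0.32 (1.25-fold, SE 0.07, adjusted p = 0.0162). The other 2 probe sets of Hadhb gave 0.18 and 0.52. On the one with 0.18 the groups overlapped, with POMCMfn2KO array 5 at 11.90 and controls at 11.85 to 12.09. Acadvl, the very long-chain acyl-CoA dehydrogenase that feeds the trifunctional protein, was at 12.61 ± 0.02 in controls and 12.75 ± 0.04 in POMCMfn2KO; its groups did not overlap either, but the change of 0.15 did not pass (adjusted p = 0.0943). With any 1 control left out, the adjusted p of Hadha was 0.0569 to 0.0792. Without POMCMfn2KO arrays 2 and 3 together both Hadha (0.0961) and Hadhb (0.0720) lost theirs, at changes of 0.26 and 0.28.

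Hadha and Hadhb lie head to head, and the 250 bases before the Hadhb start are shown because they also cover most of the stretch before the Hadha start. In the RefSeq promoter table (GRCm38.p6) the start sites are at positions 30154980 and 30155253 of chromosome 5, with 272 bases between them and the genes running away from each other. Start sites paired this closely and in this orientation belong to 2443 of the 27025 genes in that table (9.04%). The sequence below is chr5:30155003-30155252 on the plus strand, read toward Hadhb, and the capitals mark the 2 matches in it to the GC box GGGCGG.
Hadhb: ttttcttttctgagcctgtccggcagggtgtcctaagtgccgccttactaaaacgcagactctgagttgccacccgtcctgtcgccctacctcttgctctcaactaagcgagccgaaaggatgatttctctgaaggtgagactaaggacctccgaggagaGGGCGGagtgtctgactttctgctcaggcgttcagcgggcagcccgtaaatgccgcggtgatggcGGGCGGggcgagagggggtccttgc

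**Figure D2:**
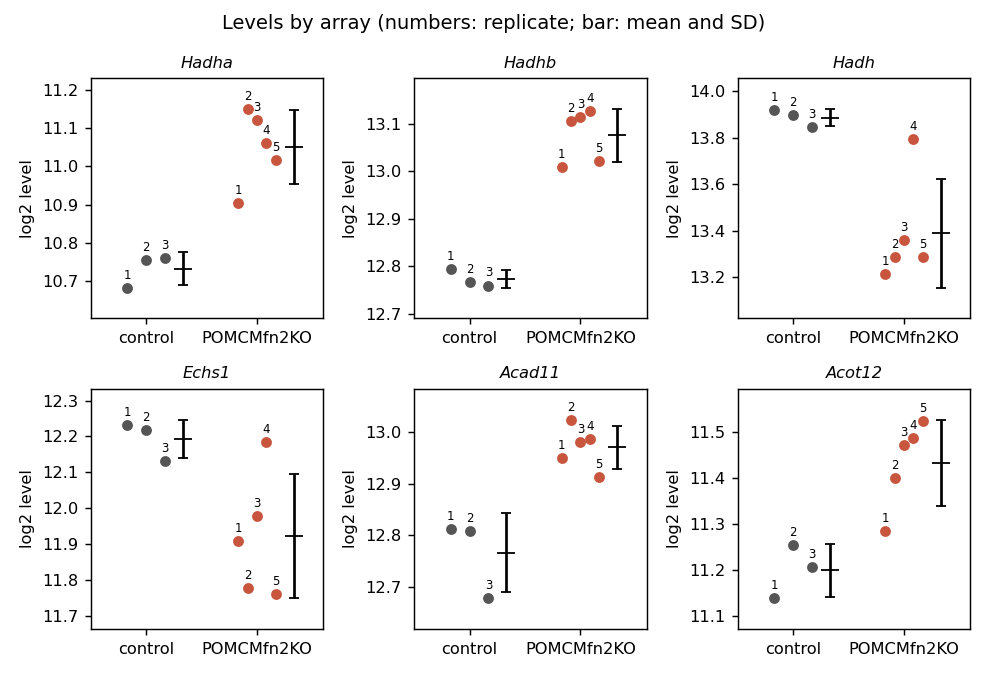
Log2 level of 6 genes on each array (dots, numbered by replicate; bar: mean and SD), with a separate axis for each gene. Hadha, Hadhb, Acad11 and Acot12 lie higher in all 5 POMCMfn2KO arrays, Hadh lies lower in all 5, and Echs1 in 4, with POMCMfn2KO array 4 nearest to the controls in Hadh and among them in Echs1.

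Of the soluble matrix enzymes of the later steps, Hadh fell, and Echs1 and Acaa2 had lower means that did not pass. Hadh, the short-chain hydroxyacyl-CoA dehydrogenase, was at 13.92, 13.90 and 13.85 in controls and at 13.21, 13.29, 13.36, 13.80 and 13.29 in POMCMfn2KO arrays 1 to 5. All 5 arrays were below the controls, array 4 only just. Hadh fell by 0.50 (1.41-fold, SE 0.12, adjusted p = 0.0243), and its other 2 probe sets gave -0.60 and -0.49. Echs1, the short-chain hydratase that works just before it, was at 12.23, 12.22 and 12.13 in controls and at 11.91, 11.78, 11.98, 12.18 and 11.76 in POMCMfn2KO. Array 4 was again the highest of its group, and here it lay among the controls. The difference of -0.27 did not pass (adjusted p = 0.0879), though it did without that array (-0.34, adjusted p = 0.0145). Acaa2, the matrix thiolase, was at 13.39 ± 0.01 in controls and 13.23 ± 0.11 in POMCMfn2KO, with no overlap (-0.16, adjusted p = 0.165), but its other 2 probe sets gave -0.07 each, with overlap. Hadh did not pass with any 1 control left out (adjusted p from 0.0756 to 0.0945), nor without POMCMfn2KO array 2 (0.0550), array 3 (0.0549) or both (0.126).

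Among the dehydrogenases of the first step, those listed for medium, short and long chains differed little. Acadm, the medium-chain enzyme, differed by -0.08 (interval -0.23 to 0.08), Acads, the short-chain enzyme, by -0.03 (-0.17 to 0.11), and Acadl, the long-chain enzyme, by 0.12 (-0.06 to 0.31). The auxiliary enzymes for unsaturated chains were as close to 0: the isomerase Eci1 at 0.08 (-0.15 to 0.30) and the dienoyl-CoA reductase Decr1 at 0.08 (-0.16 to 0.32). All 3 electron transfer genes were somewhat higher: Etfa by 0.15, Etfdh, the oxidoreductase that passes the electrons to ubiquinone, by 0.13, and Etfb by 0.12. For Etfa (12.69 ± 0.03 and 12.84 ± 0.08) and Etfdh (12.57 ± 0.02 and 12.70 ± 0.06) the groups did not overlap, but none of the 3 passed (adjusted p = 0.136, 0.15 and 0.276). Over the 16 genes of mitochondrial oxidation, 2 rose and 1 fell (18.75% in either direction, against 18.0% of all genes tested), and the median change was 0.10.

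No gene of ketone metabolism passed the test (0 of 3 by limma, against 18.0% of all genes). At an unadjusted p under 0.05 there were 0, against 3966 of all 11986 genes. Acat1, the mitochondrial acetoacetyl-CoA thiolase, was at 13.37 ± 0.02 in controls and 13.37 ± 0.13 in POMCMfn2KO (interval -0.18 to 0.18). Bdh1, which reduces acetoacetate to beta-hydroxybutyrate, was at 12.51, 12.54 and 12.52 in controls and at 11.87, 12.65, 12.55, 12.73 and 12.28 in POMCMfn2KO arrays 1 to 5. Its 5 values straddled the controls, with array 1 far below them, and the mean difference of -0.11 had an interval of -0.50 to 0.29. A dimmer probe set of Bdh1 gave 0.38 in place of -0.11, with array 1 again the lowest, so no direction can be given for this gene. Oxct1, the transferase by which other tissues use ketone bodies, differed by -0.10 (interval -0.37 to 0.17).

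Among the 12 peroxisomal enzymes none passed (0 by limma, against 18.0% of all genes), and the median change was -0.02. At an unadjusted p under 0.05 there were 2, Acaa1a and Phyh, against 3966 of all 11986 genes. Several enzymes of the chain itself had means within 0.1 of the controls: Hsd17b4, a bifunctional enzyme of the middle steps, was at 13.08 ± 0.01 in controls and 13.08 ± 0.06 in POMCMfn2KO (interval -0.13 to 0.13), Scp2, sterol carrier protein with its thiolase, differed by -0.01 (-0.15 to 0.13), the thiolase gene Acaa1b by -0.03 (-0.20 to 0.15) and Acox2, the oxidase of branched chains and bile acid precursors, by -0.07 (-0.33 to 0.19). Acaa1a, the sister thiolase, was at 10.07 ± 0.07 in controls and 9.81 ± 0.15 in POMCMfn2KO (-0.26, adjusted p = 0.0794), and -0.27 on its other probe set. It passed without POMCMfn2KO array 1 (adjusted p = 0.0215) and with the mean of its probe sets (0.0324); probe sets of Acaa1a and Acaa1b can bind both transcripts.

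The enzymes of alpha-oxidation, which shortens the branched-chain phytanic acid by its carboxyl carbon, had higher means that did not pass. Phyh, the phytanoyl-CoA hydroxylase, was at 13.81, 13.82 and 13.79 in controls and at 14.01, 13.94, 14.03, 13.94 and 13.91 in POMCMfn2KO arrays 1 to 5. Its groups did not overlap, and the change of 0.16 missed the threshold (adjusted p = 0.0832; 0.0498 with a trended and robust variance). Hacl1, the lyase of the next step, differed by 0.13 (interval -0.07 to 0.33). Decr2, the peroxisomal dienoyl-CoA reductase, was higher by 0.21 (adjusted p = 0.264), and passed without POMCMfn2KO array 1 (0.29, adjusted p = 0.0496). Acot8, a broad thioesterase, was higher by 0.13 (adjusted p = 0.183).

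Acot3, Acot4 and Crot, which release or export shortened chains, varied from mouse to mouse, whereas the SD of the thioesterase gene Acot8 within POMCMfn2KO was 0.07. Acot3, a thioesterase of long acyl-CoAs, was at 9.84, 9.81 and 9.88 in controls and at 7.05, 9.06, 9.44, 10.68 and 9.68 in POMCMfn2KO arrays 1 to 5. Its POMCMfn2KO values thus spanned 3.63 log2 units, a 12.4-fold range, against 0.07 in controls, with array 1 far below and array 4 above every control. Acot4, a neighbouring thioesterase gene that acts on succinyl-CoA and other dicarboxylic acyl-CoAs, was at 8.41, 8.47 and 8.45 in controls and at 7.40, 8.29, 8.45, 9.14 and 8.53 in POMCMfn2KO. The 5 arrays fell in the same order, with array 1 lowest and array 4 highest, and a second probe set of Acot4 gave 6.64 in array 1 and 8.34 in array 4 against 7.75 to 7.87 in controls. Crot, which makes the carnitine esters that leave the peroxisome, was at 13.68, 13.73 and 13.71 in controls and at 12.85, 13.64, 13.64, 13.73 and 13.44 in POMCMfn2KO, again lowest in array 1. None of the 3 passed (adjusted p = 0.516 for Acot3, 0.885 for Acot4 and 0.375 for Crot). Another probe set of Crot, at a much lower signal, gave 0.26 with array 1 at 6.67 against 6.73 to 6.95 in the other 4 arrays, and the Acot3 probe set is of a kind that can bind several transcripts of a family. By the SD within POMCMfn2KO, 0.267% of all genes tested varied more than Acot3, 1.5% more than Acot4, 6.05% more than Crot and 6.53% more than Bdh1.

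**Figure D3:**
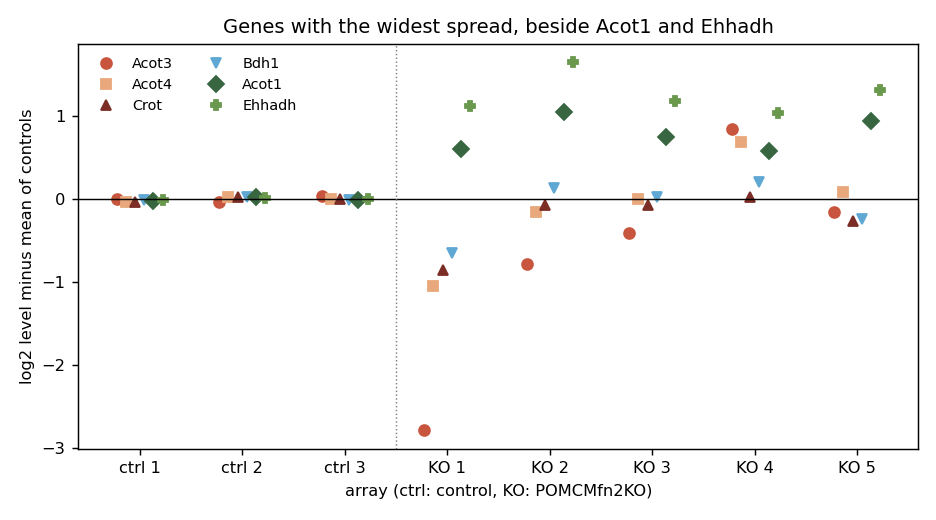
Log2 level minus the mean of the controls for 6 genes on each of the 8 arrays (ctrl: control; KO: POMCMfn2KO). Acot3, Acot4, Crot and Bdh1 fall to their lowest points in POMCMfn2KO array 1, where Acot1 and Ehhadh are above the controls as in the other 4 arrays.

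The low value of array 1 was not found in all related genes. Acot1, the cytosolic thioesterase of the same gene family, was at 10.93, 10.97 and 10.94 in controls and at 11.55, 12.00, 11.69, 11.53 and 11.89 in POMCMfn2KO arrays 1 to 5. Ehhadh, the peroxisomal bifunctional enzyme that is a classic PPARa target, was at 13.77 in array 1 against 12.63 to 12.66 in controls. Acot2, the mitochondrial thioesterase, was at 9.31 in array 1 and at 10.24 and 10.31 in arrays 2 and 5, against 9.61 to 9.82 in controls. The start sites of Acot4 and Acot3 lie 13764 bases apart on chromosome 12 and point the same way. Part of the Acot3 promoter is printed because this gene varied most of the 40; the stretch is chr12:84052014-84052133, plus strand (RefSeq, GRCm38.p6), and capitals mark its 2 matches to CCAAT, one on each strand.
Acot3: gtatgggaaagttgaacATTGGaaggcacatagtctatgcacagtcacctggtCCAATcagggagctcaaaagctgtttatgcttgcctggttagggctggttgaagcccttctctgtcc

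The 4 peroxins, proteins that build and divide peroxisomes, all had slightly lower means and none passed (0 by limma, against 18.0% of all genes). At an unadjusted p under 0.05 there were 0, against 3966 of all 11986 genes. Pex5, the import receptor for matrix enzymes, differed by -0.21 (interval -0.48 to 0.06), Pex14, its docking partner, by -0.11 (-0.27 to 0.04), Pex19, the chaperone of membrane proteins, by -0.11 (-0.41 to 0.18) and Pex11a, which elongates the membrane and is induced by PPARa, by -0.01 (-0.21 to 0.19). For Pex19 the probe sets disagreed: one at a lower level was at 7.36 ± 0.08 in controls and 8.02 ± 0.09 in POMCMfn2KO, a difference of 0.66. Of the 20 members with several probe sets above the filter, the sign differed among them in 10.

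In the remaining class, Acad11 and Acot12 rose. Acad11, an acyl-CoA dehydrogenase found in peroxisomes and mitochondria, was at 12.81, 12.81 and 12.68 in controls and at 12.95, 13.02, 12.98, 12.99 and 12.91 in POMCMfn2KO. It rose by 0.20 (1.15-fold, SE 0.06, adjusted p = 0.0461), and by 0.24 on its other probe set. Acot12, a cytosolic thioesterase that hydrolyses acetyl-CoA, was at 11.14, 11.25 and 11.21 in controls and at 11.28, 11.40, 11.47, 11.49 and 11.52 in POMCMfn2KO. It rose by 0.23 (1.18-fold, SE 0.07, adjusted p = 0.0489), but by only 0.05 on its other bright probe set. In both the groups did not overlap, and both calls lay close to the threshold: Acad11 lost its call under 11 of 16 alternatives (adjusted p up to 0.194) and Acot12 under 12 (up to 0.395), each including the fits without any 1 control and without POMCMfn2KO arrays 2 or 3. Crat, carnitine acetyltransferase, and Eci2, an isomerase of both organelles, differed by -0.02 and -0.04.

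Set against each other, the means of the listed mitochondrial and peroxisomal genes each lay close to their control level, and the spread of the peroxisomal mean turned on Acot3 and Acot4. Peroxisomal genes outside the list, such as Ehhadh, are not in this mean. Of 20 such enzymes and transporters tested, 3 rose and 1 fell. The mean of the 19 mitochondrial genes was 12.14 ± 0.01 in controls and 12.16 ± 0.08 in POMCMfn2KO, and that of the 12 peroxisomal enzymes was 11.96 ± 0.02 and 11.90 ± 0.20. The mitochondrial mean minus the peroxisomal mean was 0.19, 0.17 and 0.19 in controls and 0.57, 0.25, 0.23, 0.13 and 0.12 in POMCMfn2KO arrays 1 to 5. The POMCMfn2KO values lay on both sides of the controls, and the group difference of 0.08 was smaller than the SD of 0.18 within POMCMfn2KO. Without array 1 it was 0.0021. With Acot3 and Acot4 left out, a choice made after their values were seen, the mean of the other 10 was 12.52 ± 0.02 in controls and 12.52 ± 0.05 in POMCMfn2KO, an SD below that of the mitochondrial mean. Of the mitochondrial genes 2 rose and 1 fell out of 19, and of the peroxisomal enzymes 0 out of 12. Of all genes tested, 7.02% rose and 10.9% fell. Whether the shares of the mitochondrial and peroxisomal genes differ was not tested.

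**Figure D4:**
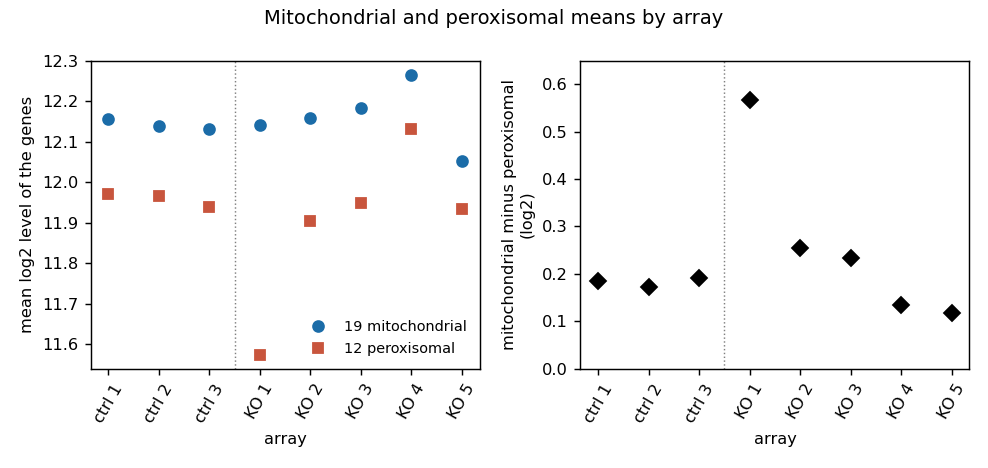
Left, the mean log2 level of the 19 mitochondrial genes (circles) and the 12 peroxisomal enzymes (squares) on each array (ctrl: control; KO: POMCMfn2KO). Right, the first mean minus the second: the controls sit between 0.17 and 0.19, and POMCMfn2KO array 1 stands at 0.57, with a peroxisomal mean of 11.57.

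The mice of the POMCMfn2KO group ranked differently from one another across these genes. Array 4 was the highest of all 8 arrays for 17 of the 40 genes (42.5%), against 8.72% of all genes tested, and array 1 was the lowest for 13 (32.5%), against 20% of all genes. In 9 genes both held: Acads, Bdh1, Hsd17b4, Scp2, Crot, Acot3, Acot4, Pex11a and Acsl5 (22.5%, against 1.94% of all genes). Array 5 was the lowest for 11 (27.5%, against 16.2%), among them Cpt2, Acadm, Eci1, Decr1 and Acat1. In 38 of the 40 the SD was larger in POMCMfn2KO than in controls, which was so in 9593 of all 11986 genes. The summed acinar signal was 1429 in array 1 and 2035 in array 4, against 1281 to 1314 in controls and 17739 and 19906 in arrays 2 and 3. Array 4 was high in the erythroid gene Alas2 (10.20, against 8.15 to 8.20 in controls and 7.78 to 8.12 in the other POMCMfn2KO arrays). The summed signal of the 3 of 5 listed erythroid markers with a probe set, 2 of them below the filter, was 1226 there and 271 to 349 elsewhere. That sum rests on Alas2, since the other 2 were not high in array 4. Hba-a1 was at 4.38 there (4.50 to 4.56 in controls) and Slc4a1 at 4.78 (4.91 to 5.07 in controls). The part of these acinar and erythroid signals in the ranking was not tested.

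**Figure D5:**
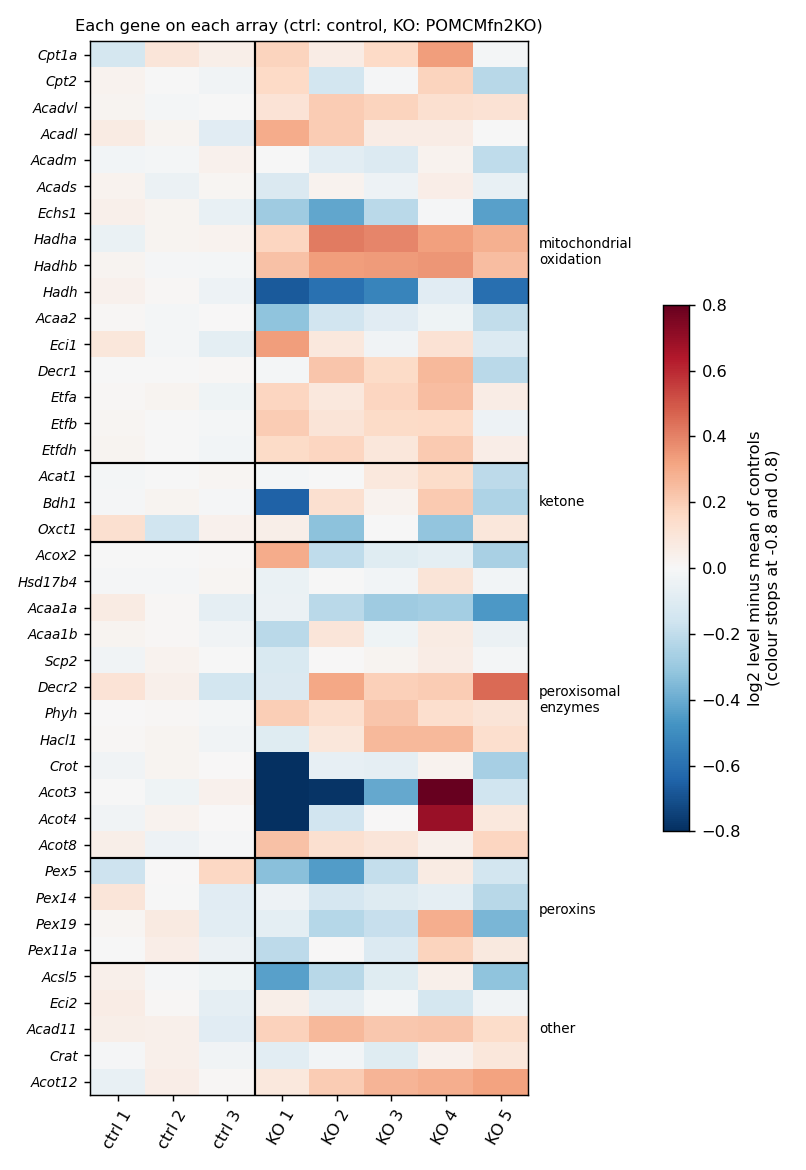
Log2 level of each gene on each array minus the mean of its 3 controls (columns: arrays; rows: genes by class; red higher, blue lower; colours stop at 0.8 either way). The Hadha and Hadhb rows are red and the Hadh row blue across POMCMfn2KO, and array 1 is darkest blue at Crot, Acot3 and Acot4.

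The wider pathway, read from 88 further genes, changed in both directions. Of these, 76 had a named probe set and 70 were tested; 10 rose and 11 fell (14.3% and 15.7%, against 7.02% and 10.9% of all genes tested), with a median change of -0.09 (-0.02 over all genes). Without POMCMfn2KO arrays 2 and 3, 4 rose and 1 fell. By the lowest p, the 10 named were Ehhadh (1.26), Acot1 (0.79), Pex6 (0.35), Cyp4a14 (0.57), Pex26 (-0.62), Dbi (-0.34), Pex7 (-0.42), Pex3 (-0.39), Slc27a4 (-0.25) and Cyp4a31 (1.44). Ehhadh rose 2.40-fold (adjusted p = 0.000522). Cyp4a14 and Cyp4a31, microsomal omega-hydroxylases of fatty acids, rose 1.48-fold and 2.71-fold, and their probe sets may bind related Cyp4a transcripts. Cyp4a14 passed under all 16 alternatives, while Cyp4a31 did not with any 1 control left out (adjusted p up to 0.0867), without POMCMfn2KO array 3 (0.0528) or without arrays 2 and 3 (0.113). Cyp4a31 stood at 10.39 in array 4 and at 11.49 to 12.17 in the other 4 arrays, against 10.08 to 10.20 in controls, so the array with the highest Acot3 had the lowest Cyp4a31 of the POMCMfn2KO group.

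Among 11 further peroxins tested, 2 rose and 3 fell, against 7.02% and 10.9% of all genes tested. Pex26 and Pex6, the membrane anchor and one of the motor subunits of the complex that recycles Pex5, moved in opposite directions: Pex26 fell from 8.79 ± 0.05 to 8.17 ± 0.21 (adjusted p = 0.00750), and Pex6 rose from 10.37 ± 0.07 to 10.72 ± 0.02 (adjusted p = 0.00506), although other probe sets of Pex6 gave 0.26, 0.09 and -0.15 and the mean of them all did not pass (adjusted p = 0.0668). Pex7, the receptor for a second class of import signal that Phyh and the Acaa1 thiolases carry, fell from 11.54 ± 0.02 to 11.12 ± 0.15 (adjusted p = 0.0127), and Pex3, which receives Pex19 at the membrane, fell from 9.58 ± 0.03 to 9.19 ± 0.14 (adjusted p = 0.0134). With any 1 control left out, neither passed (adjusted p up to 0.0639), nor without POMCMfn2KO arrays 2 and 3 (up to 0.0846). Dbi, the acyl-CoA binding protein, and Slc27a4, a fatty acid transport protein, also fell (adjusted p = 0.00843 and 0.0205). Slc27a4 did not pass with any 1 control left out (adjusted p up to 0.0940), and neither of them passed without POMCMfn2KO arrays 2 and 3 (0.0632 for Dbi and 0.112 for Slc27a4). Ppara itself did not pass (0.21, adjusted p = 0.350).

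The promoters of these genes were read for motifs in windows of 300 bases, 250 before and 50 after each start site, with both strands searched. Windows were found for 35 of the 41 genes, 41 windows in all, against 32851 windows for all genes. The GC box GGGCGG was in 26 of the 41 (63.4%, against 35.7% of all windows), CCAAT in 20 (48.8%, against 37.4%), CACGTG, the E-box bound by clock factors, in 1 (2.44%, against 7.15%) and TATAAA in 2 (4.88%, against 13.6%). The single site AGGTCA was in 10 windows (24.4%, against 16.3%). The direct repeat AGGTCANAGGTCA, the form bound by PPARa with its partner RXR, had no exact match in the 41 windows (13 of all 32851, 0.0396%). With at most 2 mismatches in the 12 fixed letters it was in 5 (12.2%, against 3.86%), those of Acot12, Echs1, Etfa, Acot4 and Acox2; the single site is part of this motif, so the counts overlap.

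The match of Acox2 lies after the start site. The other 4 lie before it and are shown with neighbouring bases, those of Acot4 on the upstream side only. Of their genes, Acot12 rose with a call close to the threshold, and Echs1 and Etfa did not pass at -0.27 and 0.15. Acot4 did not pass either and varied among the mice. The stretches are chr13:91741403-91741431 (plus strand), chr7:140116484-140116512 and chr9:55512300-55512328 (both read on the minus strand) and chr12:84038350-84038378 (plus strand), from RefSeq, GRCm38.p6, and capitals mark the match, which in Acot12, Etfa and Acot4 is to the reverse strand of the motif.
Acot12: taggacccTGACCTCTCACCTcctaagca
Echs1: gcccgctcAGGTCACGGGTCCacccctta
Etfa: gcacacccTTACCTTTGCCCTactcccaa
Acot4: gctcagccccgaagcaTGACCTTTGGCCG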

How the data were processed

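Expression was measured in whole liver of 3 control and 5 POMCMfn2KO mice, 1 array each. The deposited values are log2 levels of probe sets. Per the submitters' processing notes, the authors used RMA and the affy package; versions are not given in the sources used here. RMA compresses changes at very low and very high signal. No value was transformed again. Precision is limited by how many arrays there were. Of 45101 probe sets, 34945 had exactly 1 gene symbol; the brightest per gene was kept for 18193 genes, and 6207 genes whose mean did not reach 5.80 (the median over probe sets other than controls) were not tested.

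The 11986 genes left were fitted with limma 3.58.1 in R 4.3.3 (no trend, not robust, 2-sided, Benjamini-Hochberg adjusted p under 0.05), and the members were read from that fit. The fit assumes 1 spread for both groups. On simulated data with 11986 genes, 68% of 100 genes changed by 0.5 and 96% of 100 changed by 1 were recovered, with 11 false calls. Real spreads differ between groups, and in the data 18.0% of genes passed, a larger share than was changed in the simulation. Smaller changes were not simulated, and 36 of the 40 members differed by less than 0.3. The simulation therefore does not give the power for most of these members. The arrays are named biological replicates in the labels.

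The members, classes and lists were chosen with earlier results of these data known, so no list was tested. All 41 members could be named, with the 10 further pathway genes of lowest p. The alternatives were no filter, the mean of all probe sets, scaling, variance model, replicate numbers as a block and each array left out; centring on the median of the genes tested and leaving out POMCMfn2KO arrays 2 and 3 were added after seeing the data. Markers of stellate cells, cholangiocytes, lymphocytes and adipocytes were also read, and 0 passed limma, against 18.0% of all genes tested. At an unadjusted p under 0.05, 2 of 6, 0 of 3, 1 of 2 and 0 of 1 tested passed, against 3966 of all 11986 genes. Genes without a named probe set were not used here. Figures were drawn with matplotlib 3.10.9.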

Additional observations from a re-analysis of the deposited data

Results flagged for a closer look

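Hadh in POMCMfn2KO array 4, at 13.80, stood apart from the other 4 arrays of its group, the nearest of which was at 13.36. The gap was 0.752 of the range of the 5 arrays, above the critical value of 0.71 of Dixon's test. Among the 40 genes this was the only such value, chance gives about 1 in 20, and 7.36% of all genes tested had one. The low value of Acot3 in array 1 did not reach this limit because the other 4 arrays were also spread.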

How the results depend on the processing

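The 4 members that rose were 2 with no filter on dim genes and 2 with each array centred on its median, and the 1 that fell was 2 with the mean of all probe sets, where 1 peroxisomal enzyme fell; 1 peroxisomal enzyme rose with a trended and robust variance. Without POMCMfn2KO replicates 2 and 3, 0 members rose and 0 fell (limma; 5 at an unadjusted p under 0.05), the mitochondrial counts were 0 and 0, with 4 other pathway genes up and 1 down and, for all genes that rose, 239, and all genes that fell, 401. With each array left out in turn, 1 to 5 members rose and 0 to 2 fell; 1 to 2 mitochondrial members rose and 0 to 2 fell; 0 to 1 peroxisomal enzymes rose and 0 to 1 fell; 4 to 13 other pathway genes rose and 2 to 13 fell; and 286 to 1156 of all genes rose and 496 to 1642 fell. The mitochondrial minus peroxisomal difference ranged from 0.0021 to 0.11 with an array left out. No gene reversed its call. The cause of these moves was not tested; fewer arrays give a wider error. Centred on the median of the genes tested, the numbers of all genes that rose and all genes that fell were 1055 and 1119, against 842 and 1310, with the member counts at 4 and 1.

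Same-numbered control and POMCMfn2KO arrays correlated at 0.04, 0.04 and -0.03 in their deviations from the group means. These values showed no pairing by number, but so few arrays cannot exclude one. With the replicate block, 1 member rose, 1 mitochondrial member rose and 6 other pathway genes rose, and Hadhb had an adjusted p of 0.0505.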
